A study of Mus musculus with 16 samples.

Results

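A set of 10 genes of collagen and scar matrix was followed through regeneration of the mouse liver, 5 of them collagen chains (Col1a1, Col1a2, Col3a1, Col4a1 and Col5a2) and 5 coding for other matrix or myofibroblast proteins (Sparc, Lum, Dcn, Timp1 and Acta2). They were taken by symbol from 13577 genes tested. The array carries 21 probe sets annotated to these 10 symbols alone, and the probe set with the highest mean of log2(signal + 16) over the 16 arrays stood for each gene. All 10 passed the filter on low signal.

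The livers came from mice on a 129SV/C57BL/6 background after partial hepatectomy, and 1 array was deposited for each arm at days 0, 2, 7 and 14. MET_KO_canertinib mice had exon 16 of Met deleted and received canertinib in the diet, with 80 mg/kg as the aim. MET_FLOX_canertinib mice received the same drug, MET_KO mice carried the deletion without the drug, and MET_FLOX mice had neither. All 4 arms are labelled with the same genotype, Metff/ff:ERCre+/+, the deletion was made with a tamoxifen-inducible system, and the design calls the inhibition systemic, so cells other than hepatocytes were also open to it. Canertinib is an inhibitor of EGFR and related receptor kinases. Ages are not given in the labels, and neither is the number of animals behind an array. The p-values below measure only the spread between these arrays, which may be technical.

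Collagens I, III and V form the fibrils of the liver's interstitial matrix, and collagen IV is the chief collagen of basement membranes. Stellate cells, the vitamin A storing pericytes of the sinusoid, make much of this matrix once they turn into myofibroblasts, which carry the smooth muscle actin coded by Acta2, and portal fibroblasts and endothelium add to it. After partial hepatectomy the matrix around dividing hepatocytes is broken down and laid down again, with TIMP1 holding matrix metalloproteinases in check. Because whole liver was measured, fewer cells of a type and less RNA per cell cannot be told apart.

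Promoter windows from RefSeq (build GRCm38.p6, 250 bases before to 50 bases after the start of the gene) were matched for 6 of the 10 genes. The following 4 are shown because Col3a1 and Sparc had similar courses over the 16 arrays and Timp1 and Acta2 another. The windows lie at chr1:45311288-45311587 (forward strand), chr11:55420031-55420330 (reverse strand), chr19:34255324-34255623 (reverse strand) and chrX:20869916-20870215 (forward strand). Capitals mark every match, on either strand and with no overlap among matches, to the 6 motifs counted after the sequences.
Col3a1: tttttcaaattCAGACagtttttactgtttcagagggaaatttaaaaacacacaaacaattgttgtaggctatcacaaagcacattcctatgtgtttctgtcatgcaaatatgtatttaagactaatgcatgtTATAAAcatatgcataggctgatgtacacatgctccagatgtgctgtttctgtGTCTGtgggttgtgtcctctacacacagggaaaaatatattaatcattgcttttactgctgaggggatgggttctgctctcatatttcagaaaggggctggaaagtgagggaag
Sparc: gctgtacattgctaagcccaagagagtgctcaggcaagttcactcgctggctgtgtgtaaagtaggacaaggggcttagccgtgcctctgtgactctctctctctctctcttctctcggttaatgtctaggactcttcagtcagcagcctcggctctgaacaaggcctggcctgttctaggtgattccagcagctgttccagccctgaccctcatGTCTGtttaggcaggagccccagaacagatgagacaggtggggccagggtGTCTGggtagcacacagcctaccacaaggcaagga
Acta2: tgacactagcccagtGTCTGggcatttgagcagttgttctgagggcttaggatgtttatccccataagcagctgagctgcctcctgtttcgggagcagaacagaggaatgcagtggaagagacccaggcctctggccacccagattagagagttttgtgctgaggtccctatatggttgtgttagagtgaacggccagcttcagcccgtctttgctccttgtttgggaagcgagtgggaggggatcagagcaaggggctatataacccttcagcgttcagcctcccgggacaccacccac
Timp1: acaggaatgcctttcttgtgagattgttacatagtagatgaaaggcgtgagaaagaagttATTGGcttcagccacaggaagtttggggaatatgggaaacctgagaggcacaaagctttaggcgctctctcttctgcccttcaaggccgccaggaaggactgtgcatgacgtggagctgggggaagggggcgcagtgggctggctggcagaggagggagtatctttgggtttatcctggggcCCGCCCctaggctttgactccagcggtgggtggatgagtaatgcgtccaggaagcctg

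CAGAC, an element read by SMAD proteins, was found in 4 of the 6 windows (Col3a1, Sparc, Acta2 and Col1a2), and 49.6% of 32851 windows of the same length hold it. CCAAT was found in 3 of 6 (Col1a2, Col4a1 and Timp1), against 37.4% of all windows, and GGGCGG in the same 3 genes, against 35.7%. TATAAA stood in the Col3a1 window alone, against 13.6% of all windows. None of the 6 windows held TGANTCA (an AP-1 site, 7.81% of all windows) or the strict CArG box (CC, 6 letters of A or T, GG, 1.63%). This says only that these exact letters are not in these windows. Looser CArG forms with a C or G in the core, such as ccctatatgg in the Acta2 window, were not counted.

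The arrays fell into sets by brightness. The 6 arrays of MET_KO and MET_FLOX at days 0, 2 and 7 had median signals between 156.4 and 188.7, and the other 10 arrays, which include all 8 canertinib arrays and day 14 of the arms without the drug, between 244 and 265. The labels name no batch. At days 0, 2 and 7 the drug and the array set cannot be told apart. The Gapdh 3' to 5' signal ratio, a sign of RNA quality, was 0.950 to 2.24 on canertinib arrays and 0.765 to 0.869 on the others. The Met probe set with the higher signal read 982 to 2066 in knockout arms and 1041 to 2014 in flox arms, and since its place relative to exon 16 is unknown here, it does not check the deletion. Hepatocyte markers summed to 217289 to 399900 on canertinib arrays and 119962 to 286258 on the others, and 7 of the 8 passed the filter. Of 16 stellate cell markers 15 passed, with sums of 10668 to 18308 against 13174 to 17923.

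Signals of 9, 10 and 9 of the 10 genes were on average higher at days 2, 7 and 14 than at day 0. The medians of their log2 differences, taken as log2 of signal + 16, were 0.50, 0.45 and 0.75, against -0.06, -0.01 and 0.10 over all genes. None of the 10 passed limma's test at an adjusted p below 0.05 at any of the 3 days. Of all genes, 0.383%, 0.00737% and 0.081% passed at days 2, 7 and 14. At an unadjusted p below 0.05, 3, 3 and 4 of the 10 genes differed, against 1425, 662 and 2240 of all 13577 genes. The 3 comparisons share the day 0 arrays. At day 14 the arrays without canertinib belong to the brighter set and their day 0 arrays to the dimmer one, and days 0, 2 and 7 of an arm always share a set.

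**Figure D1:**
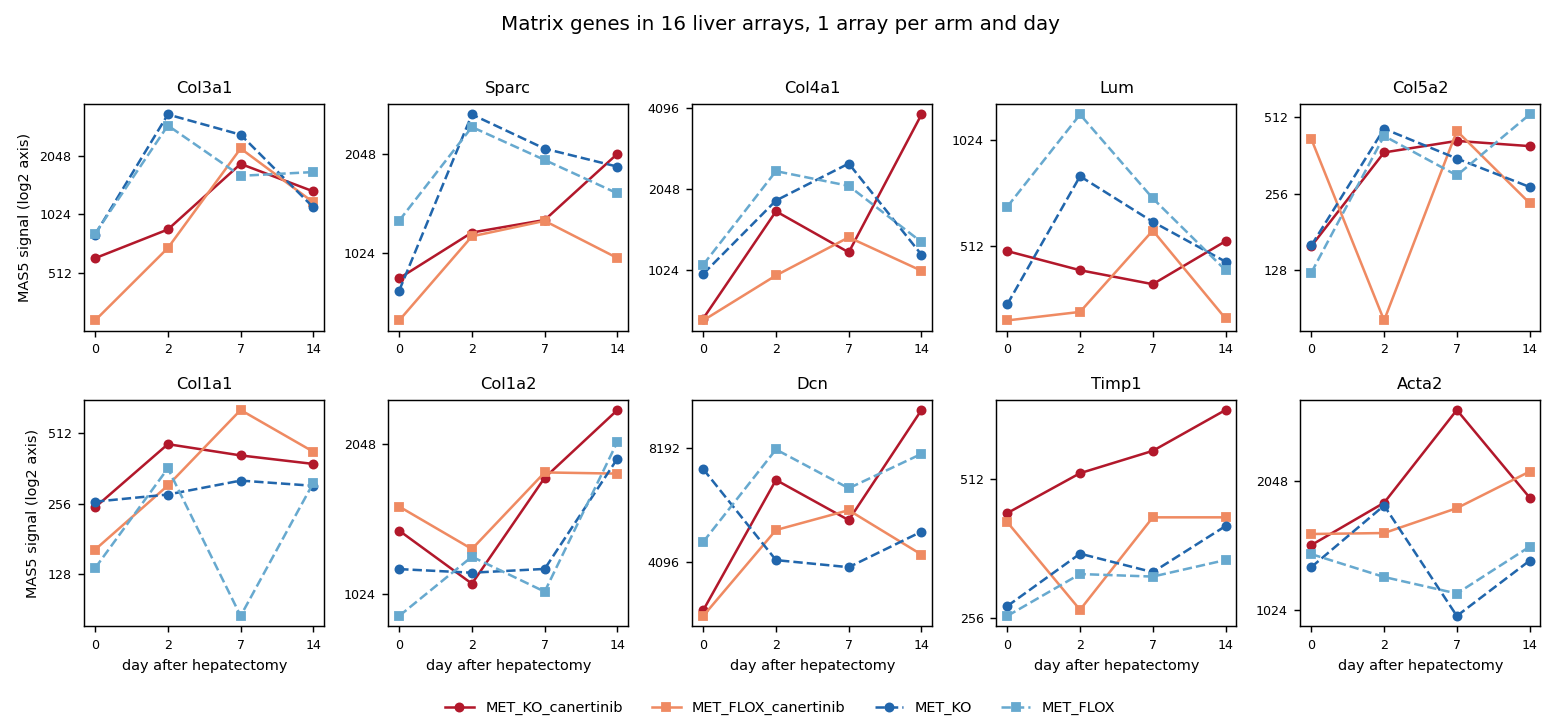
MAS5 signal (log2 axis) of the 10 genes at days 0, 2, 7 and 14 after hepatectomy, 1 point for each of the 16 arrays. Red and orange solid lines are the canertinib arms and blue dashed lines are the arms without the drug. Col3a1 is highest at day 7 in both canertinib arms and at day 2 in both others.

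Col3a1, the chain of collagen III, a fibril laid down early in wound healing, had the largest average change since day 0 among the 10 genes. Its signals at days 0, 2, 7 and 14 were 608, 854, 1856 and 1340 in MET_KO_canertinib livers, 291, 686, 2228 and 1177 in MET_FLOX_canertinib livers, 804, 3332, 2623 and 1109 in MET_KO livers, and 813, 2924, 1612 and 1685 in MET_FLOX livers. Every array after day 0 was above the day 0 array of its own arm. The average log2 difference from day 0 was 1.38 at day 2, 1.78 at day 7 and 1.14 at day 14 (SE 0.36 each, limma adjusted p = 0.159, 0.485 and 0.186).

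On this probe set the highest Col3a1 signal came at day 7 in both canertinib arms and at day 2 in both arms without the drug. At day 2 the canertinib arrays read 854 and 686 and the arrays without the drug 3332 and 2924, a difference of -2.01 on the log2 scale. By day 7 the ranges overlapped, at 1856 and 2228 with the drug and 2623 and 1612 without it, a difference of -0.02. Between days 2 and 7 Col3a1 signal was higher at day 7 by 1.10 (MET_KO_canertinib) and 1.68 (MET_FLOX_canertinib), and the same change was -0.34 (MET_KO) and -0.85 (MET_FLOX). The difference between the drug and no-drug changes was 1.99 (SE 0.46, limma unadjusted p = 0.00139, adjusted p = 0.408), rank 44 of 13577 genes by p. This contrast, added after the courses were seen, called 0% of genes, against 973 with an unadjusted p below 0.05. Days 2 and 7 of an arm always share an array set, so each arm's change lies within a set. The contrast sets arms in the brighter set against arms in the dimmer one. Drug and array set therefore cannot be told apart in it.

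**Figure D2:**
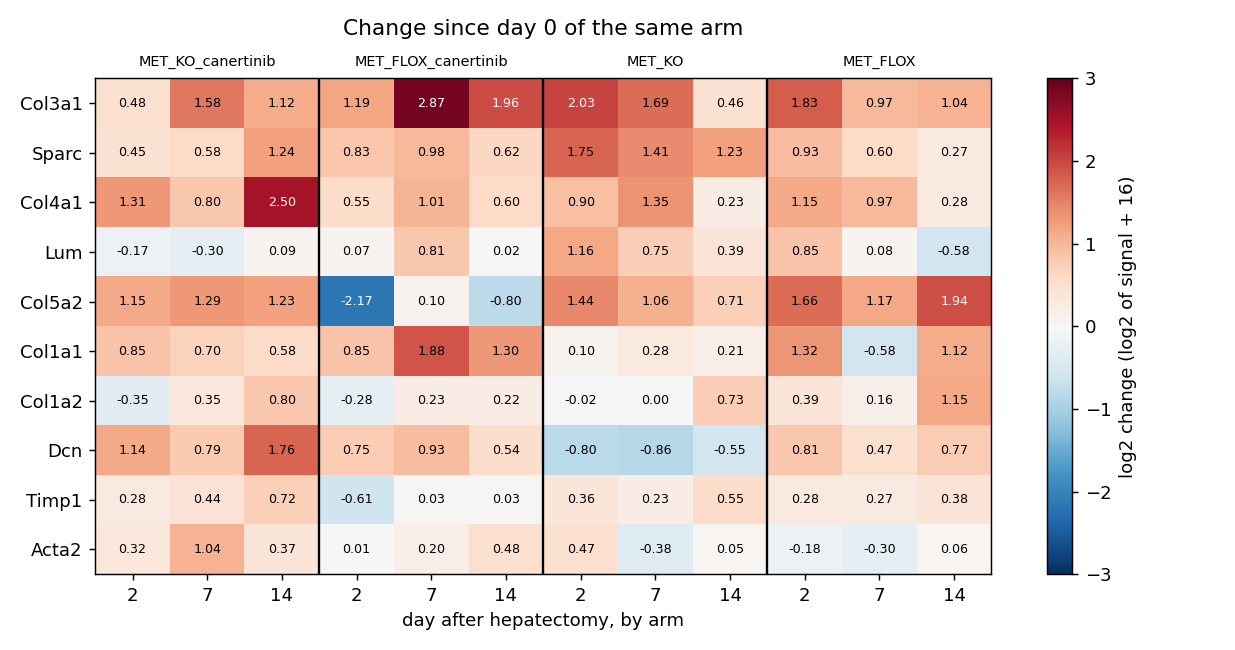
Change in log2 of signal + 16 since day 0 of the same arm, for the 10 genes (down the page) at days 2, 7 and 14 in 4 arms (left to right). Red is higher and blue lower than day 0. Col3a1, Sparc and Col4a1 are above day 0 in every cell.

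Col1a1, a chain of collagen I, the main fibril of scar tissue, was read differently by its 2 probe sets. The brighter one gave 247, 459, 411 and 378 at days 0, 2, 7 and 14 in MET_KO_canertinib livers, 163, 306, 642 and 426 in MET_FLOX_canertinib livers, 261, 280, 321 and 305 in MET_KO livers, and 136, 362, 85 and 314 in MET_FLOX livers. Its arms overlap, and the MET_FLOX signal was lowest at day 7. The dimmer one, which was above its array's median on 3 arrays and so fell under the filter, gave 19, 23, 152 and 60 in MET_KO_canertinib livers, 19, 19, 127 and 40 in MET_FLOX_canertinib livers, 39, 635, 498 and 57 in MET_KO livers, and 66, 478, 143 and 18 in MET_FLOX livers. The dimmer probe set peaked at day 7 in both canertinib arms and at day 2 in both arms without the drug, as the brighter Col3a1 probe set did, but at 19 to 23 on the canertinib arrays of days 0 and 2 it lay far below those arrays' medians, so no difference is given for it. The correlation between the probe sets was 0.06 over 16 arrays. Which of them follows the Col1a1 transcript was not tested.

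**Figure D3:**
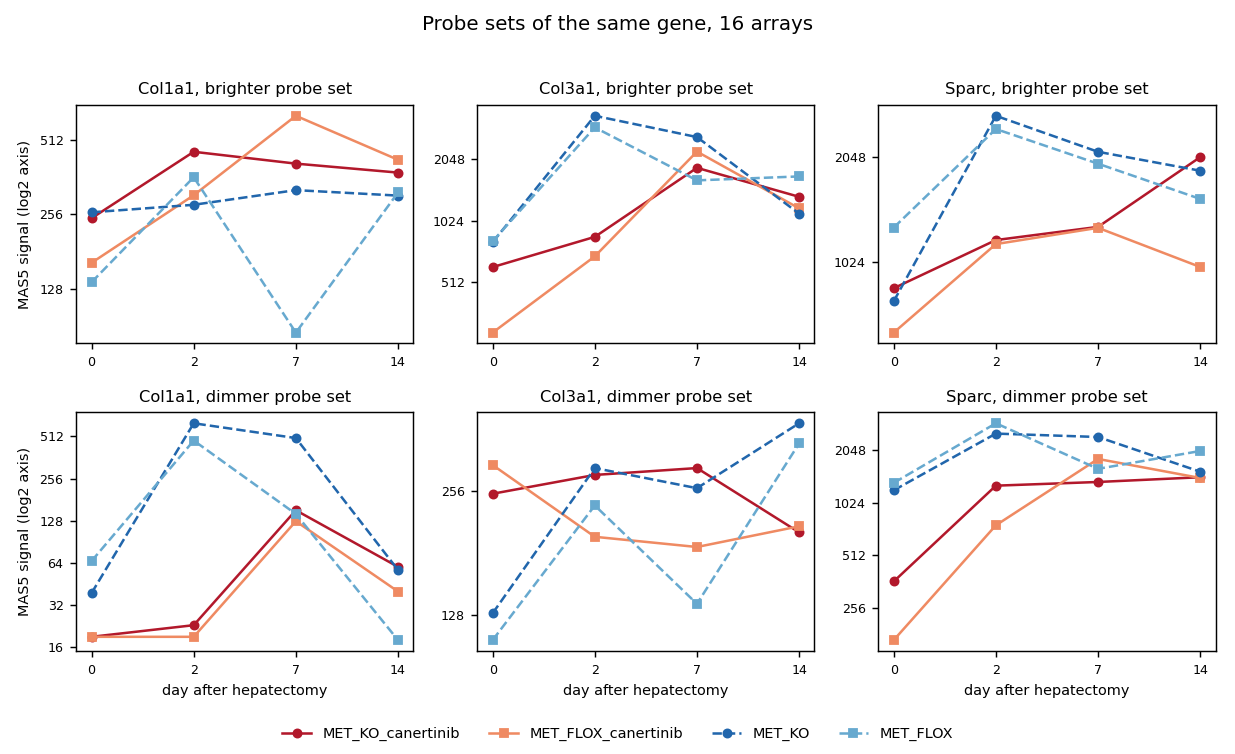
MAS5 signal (log2 axis) of a brighter and a dimmer probe set of Col1a1, Col3a1 and Sparc by day after hepatectomy and arm, 1 point per array. Brighter means the higher mean of log2(signal + 16). For Sparc the mean signals were nearly equal, at 1511.5 (brighter) and 1512.8 (dimmer). The pair shown for Sparc has r = 0.80 (a further Sparc probe set, not drawn, has r = 0.23 with the brighter one), and the pairs of Col1a1 and Col3a1 have r = 0.06 and 0.11.

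The dimmer Col3a1 probe set, which passed the filter, did not show the peak days of the brighter one. It read 252, 280, 291 and 203 at days 0, 2, 7 and 14 in MET_KO_canertinib livers, 296, 198, 187 and 210 in MET_FLOX_canertinib livers, 129, 291, 260 and 374 in MET_KO livers, and 111, 236, 136 and 334 in MET_FLOX livers. Its highest days were 7, 0, 14 and 14 in that order of arms. Tested on its own among 34945 probe sets, in a fit added after the disagreement was seen, it differed by 0.13 between canertinib arms and arms without canertinib (SE 0.26, limma adjusted p = 0.733). The chosen Sparc probe set had r = 0.80 with another and 0.23 with a further one. Over the 11 pairs of a chosen and another probe set of the same gene, correlations ran from -0.21 (Dcn) to 0.80 (Sparc). A gene's value here is therefore that of 1 probe set.

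Col1a2, the partner chain of collagen I, had its highest signal at day 14 in 3 of the 4 arms. It read 1372, 1073, 1753 and 2400 at days 0, 2, 7 and 14 in MET_KO_canertinib livers, 1534, 1260, 1797 and 1787 in MET_FLOX_canertinib livers, 1148, 1129, 1149 and 1916 in MET_KO livers, and 924, 1216, 1034 and 2071 in MET_FLOX livers. Its day 14 average exceeded day 0 by 0.72 on the log2 scale (SE 0.18, limma adjusted p = 0.127). The day 14 arrays without the drug belong to the brighter set, and the change was 0.51 in the canertinib arms, where all days share a set, and 0.94 in the others. Another Col1a2 probe set that passed the filter (r = 0.50 with the chosen one) had other peak days. It was highest at day 14 in MET_KO_canertinib and MET_FLOX livers, day 2 in MET_KO livers and day 7 in MET_FLOX_canertinib livers.

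Col5a2, a chain of the collagen V that starts fibrils, gave 159, 372, 413 and 394 at days 0, 2, 7 and 14 in MET_KO_canertinib livers, 420, 81, 452 and 235 in MET_FLOX_canertinib livers, 160, 461, 352 and 272 in MET_KO livers, and 125, 432, 302 and 525 in MET_FLOX livers. The day 2 array of MET_FLOX_canertinib was the lowest of all 16. Its day 2 difference with the drug was -2.06 beyond that at day 0 (SE 0.88, limma adjusted p = 0.615), in a model where 0% of all genes passed. Leaving out MET_FLOX_canertinib day 0 or 2 brought it to -0.98 or -0.94, and leaving out MET_KO_canertinib day 0 or 2 to -3.15 or -3.18.

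Col4a1, a chain of the basement membrane collagen IV, read 676, 1695, 1192 and 3888 in MET_KO_canertinib livers at days 0, 2, 7 and 14, 665, 978, 1356 and 1018 in MET_FLOX_canertinib livers, 991, 1859, 2553 and 1168 in MET_KO livers, and 1072, 2392, 2108 and 1302 in MET_FLOX livers. Every array after day 0 was above its arm's day 0, by 0.97, 1.03 and 0.90 on average at days 2, 7 and 14 (SE 0.34 each, limma adjusted p = 0.311, 0.846 and 0.229). The MET_KO_canertinib array of day 14 was the highest of all 16, and without it the day 14 difference was 0.38. At day 14 the difference was 1.55 in the canertinib arms and 0.26 in the others, and 1.61 once array set entered the model (adjusted p = 0.0811). In the arms without the drug, array set and day 14 coincide. That fit therefore rests on the day 14 arrays of the canertinib arms and is no separate check on the 1.55. The change was 2.50 in MET_KO_canertinib and 0.60 in MET_FLOX_canertinib livers.

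Sparc, a matricellular protein that binds collagen, read 859, 1182, 1290 and 2048 at days 0, 2, 7 and 14 in MET_KO_canertinib livers, 640, 1151, 1282 and 989 in MET_FLOX_canertinib livers, 788, 2694, 2122 and 1872 in MET_KO livers, and 1284, 2468, 1961 and 1553 in MET_FLOX livers. It too was above day 0 on every later array, by 0.99, 0.89 and 0.84 on average (SE 0.23 each, limma adjusted p = 0.0976, 0.619 and 0.141). Day 2 was the highest day in both arms without the drug, and the canertinib arms were lower at that day, at 1182 and 1151 against 2694 and 2468.

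Lum and Dcn code for lumican and decorin, small leucine-rich proteoglycans that sit on collagen fibrils. Lum read 496, 438, 400 and 529 in MET_KO_canertinib livers at days 0, 2, 7 and 14, 316, 334, 567 and 320 in MET_FLOX_canertinib livers, 351, 807, 600 and 463 in MET_KO livers, and 662, 1206, 699 and 438 in MET_FLOX livers. At day 2 the canertinib arrays, at 438 and 334, lay below the others, at 807 and 1206. Dcn read 3047, 6745, 5279 and 10335 in MET_KO_canertinib livers, 2943, 4970, 5609 and 4279 in MET_FLOX_canertinib livers, 7206, 4137, 3962 and 4921 in MET_KO livers, and 4624, 8124, 6412 and 7909 in MET_FLOX livers. On this probe set MET_KO was the only arm in which Dcn was lower at every later day than at day 0. A second Dcn probe set, which also passed the filter, ran the other way in MET_KO livers. It read 89, 133, 184 and 268 at days 0, 2, 7 and 14.

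Timp1, an inhibitor of matrix metalloproteinases, read 431, 526, 588 and 721 at days 0, 2, 7 and 14 in MET_KO_canertinib livers, 412, 266, 422 and 422 in MET_FLOX_canertinib livers, 271, 352, 321 and 404 in MET_KO livers, and 258, 318, 314 and 341 in MET_FLOX livers. All 4 MET_KO_canertinib arrays were above every array of the arms without the drug. The share of all genes with such a separation was not counted, so it is not read as particular to Timp1. Acta2, the smooth muscle actin of myofibroblasts and vessel walls, read 1450, 1821, 3001 and 1873 in MET_KO_canertinib livers, 1539, 1547, 1769 and 2154 in MET_FLOX_canertinib livers, 1288, 1794, 990 and 1333 in MET_KO livers, and 1381, 1221, 1117 and 1437 in MET_FLOX livers. Its highest signal was on the day 7 array of MET_KO_canertinib, and the lowest on that of MET_KO.

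Over all days the canertinib arms were set against the arms without the drug, 8 arrays each. Timp1 and Acta2 were higher and Sparc, Col3a1 and Lum lower in the canertinib arms, so 5 of the 10 genes passed limma's test, while 34.6% of all genes did (24% higher and 10.6% lower). Against that background the count is not read as a result about these 10 genes. Their median difference was -0.14, and that of all genes 0.14. The 8 canertinib and 8 other arrays overlapped for every one of the 10.

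Sparc had signals of 640 to 2048 (median 1167) with canertinib and 788 to 2694 (median 1916) without, lower in 6 of the 8 pairs of arrays of the same genotype and day. The difference was -0.62 (SE 0.16, limma adjusted p = 0.0116; exact permutation within days, two-sided p = 0.0108, 0.072 after adjustment over 20 tests). Col3a1, with a range of 291 to 2228 (median 1016) against 804 to 3332 (median 1648), was lower in 6 of 8 pairs, with a difference of -0.76 (SE 0.26, limma adjusted p = 0.0339, exact permutation p = 0.0340). Lum, at 316 to 567 (median 419) against 351 to 1206 (median 631), differed by -0.54 (SE 0.20, limma adjusted p = 0.0485) and was also lower in 6 of 8 pairs (exact permutation p = 0.0340, which like that of Col3a1 became 0.113 over the 20 tests). On leaving out each array in turn the Sparc call held in all 16 fits, that of Col3a1 was lost in 9 and that of Lum in 11.

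Timp1 had a range of 266 to 721 (median 426) with canertinib and 258 to 404 (median 319) without, and was higher in 7 of 8 pairs. Its difference was 0.49 (SE 0.15, limma adjusted p = 0.0222, exact permutation p = 0.0108). Acta2, at 1450 to 3001 (median 1795) against 990 to 1794 (median 1311), was higher in 8 of 8 pairs, by 0.50 (SE 0.16, limma adjusted p = 0.0280, exact permutation p = 0.00772). The smallest p that the 1296 allocations can give is 0.00154, and adjusted over the 20 tests neither p fell below 0.072. With each array centred on its median signal, Timp1 and Acta2 differed by 0.20 each (adjusted p = 0.316 and 0.362). Timp1 did not pass without MET_FLOX_canertinib day 0 (adjusted p = 0.0514) or MET_KO day 7 (0.0504), nor Acta2 without MET_KO_canertinib, MET_FLOX_canertinib, MET_KO or MET_FLOX day 7 or MET_FLOX day 2 (adjusted p = 0.0513 to 0.0684).

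The other 5 genes did not pass. Their differences were 0.55 (Col1a1, adjusted p = 0.129), 0.31 (Col1a2, 0.0781), -0.37 (Col4a1, 0.241), -0.09 (Col5a2, 0.863) and -0.19 (Dcn, 0.508) in limma's fit. After that centring the median of all genes was -0.15, against 0.14 as deposited, and 28.6% of called genes were higher, against 69.3%, so the directions given here are relative to the scaling of the deposited signals. Sparc, Col3a1 and Lum kept their direction and passed after centring, at -0.91, -1.06 and -0.83 (adjusted p = 0.00289, 0.0127 and 0.0109).

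Once array set entered the model, 0 of the 10 genes passed, and 15 of all genes did. That fit rests on day 14 alone, where 2 arrays with the drug face 2 without it in the brighter set. Its differences were -0.26 (Sparc, SE 0.30), -0.12 (Col3a1, SE 0.49), -0.12 (Lum, SE 0.38), 0.55 (Timp1, SE 0.28) and 0.53 (Acta2, SE 0.32). Col4a1, which did not pass in either fit, differed by 0.69 there (SE 0.37), against -0.37 over all days. Timp1 and Acta2 thus differed by as much as in the fit over all days, and Sparc, Col3a1 and Lum by less. Whether array set, RNA quality or cell make-up has a part in these differences was not tested.

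**Figure D4:**
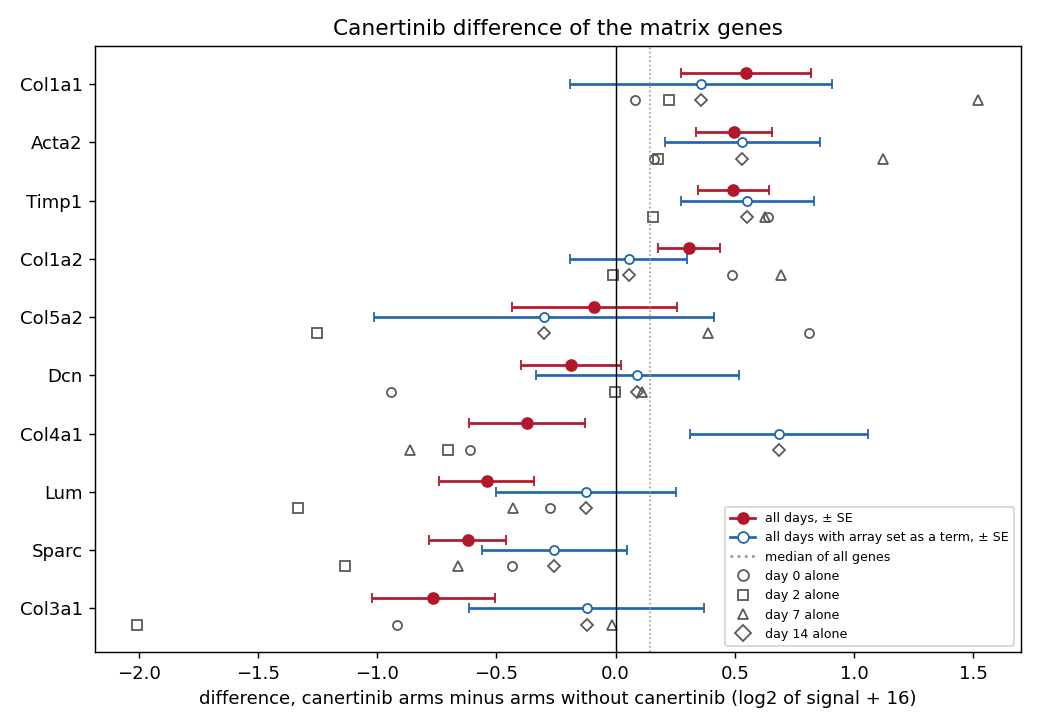
Difference in log2 of signal + 16, canertinib arms minus arms without canertinib, for the 10 genes. Filled circles with bars give the fit over all days and open circles with bars the fit with array set as a term (bars are ± SE), grey symbols give each day alone, and the dotted line is the median of all genes. The day 2 values of Col3a1 (-2.01), Lum (-1.33) and Sparc (-1.13) lie furthest from 0 among the days of each gene.

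Marker lists of other cell types were taken over the same arrays, in the comparison where 24% of all genes were called higher and 10.6% lower. Of 10 fibroblast and mesothelial markers tested, 6 were called higher with canertinib (Gli1, Upk1b, Upk3b and Msln among them, at 1.13, 1.08, 0.99 and 0.91), with summed signals of 3503 to 4982 against 1757 to 4263. Gli1 and Msln passed the filter through canertinib arrays alone, with 26 to 174 and 39 to 119 on the arrays without the drug. Their calls are therefore not read as evidence. Of 9 neutrophil markers 7 were called higher (Lcn2 2.23, S100a8 1.52, Ngp 1.20 and Ltf 0.97), with sums of 14884 to 130477 against 2980 to 46694. Lcn2 made up most of the highest sums, at 83663 of 130477 (MET_KO_canertinib day 14) and 43482 of 46694 (MET_FLOX day 7). On MET_FLOX_canertinib day 0 Lcn2 read 68801, and S100a8 and S100a9 read 662 and 601. The neutrophil sums thus largely follow Lcn2. Stellate markers were called higher 2 times (Gfap 0.84 and Cygb 0.57) and lower 2 times (Ngfr -0.96 and Vim -0.90) out of 15. Endothelial markers summed to 5458 to 10587 against 7759 to 11071, and vascular smooth muscle markers to 567 to 1423 against 358 to 970 (3 of 6 passed the filter). Kupffer cell and macrophage markers summed to 13096 to 61785 against 11021 to 43269, lymphocyte markers to 3306 to 4806 against 1280 to 3825, and cholangiocyte markers to 670 to 1594 against 218 to 1197. No gene of these lists passed once array set entered the model. Their part in the differences of the matrix genes was not tested.

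Between single arms Timp1 was higher in MET_KO_canertinib than in MET_FLOX livers, the 1 gene of 10 that passed (2.88% of all genes), at 431 to 721 against 258 to 341 with no overlap. The difference was 0.83 (SE 0.21, limma adjusted p = 0.0497), and the call was lost in 14 of the 16 fits that leave out 1 array, all but those without MET_FLOX_canertinib or MET_KO day 14 (largest adjusted p 0.150). Against MET_KO (8.23% of all genes) none of the 10 passed, and Timp1 differed by 0.71 (SE 0.21, adjusted p = 0.0510). Sparc was lower in MET_FLOX_canertinib than in MET_FLOX livers, at 640 to 1282 against 1284 to 2468 with no overlap, again 1 gene of 10 (6.71% of all genes). The difference was -0.83 (SE 0.23, limma adjusted p = 0.0444), and the call was lost in 10 of those 16 fits, all but those without day 2 or 14 of MET_KO_canertinib, day 0, 2 or 14 of MET_KO, or day 14 of MET_FLOX (largest adjusted p 0.154). How many of all genes had no overlap between these arms was not counted.

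None of the 10 passed between MET_KO_canertinib and MET_FLOX_canertinib (0.00737% of all genes), between MET_KO and MET_FLOX (0%), or between knockout and flox arms over both diets (0%). For knockout against flox arms, 1 of the 10 had an unadjusted p below 0.05 in limma, Timp1 at 0.34, against 322 of all genes. The interaction of genotype and canertinib called 0.0147% of all genes and none of the 10. These comparisons share arms, so their values are not separate evidence.

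Other collagens were read as a list of 15 genes, of which 14 passed the filter. With canertinib 4 were called higher (Col4a3 0.97, Col4a5 0.84, Col6a2 0.57 and Col5a1 0.52) and 0 lower, with a median of 0.25. Of all genes 24% were called higher and 10.6% lower in that comparison, with a median of 0.14, and the shares of this list and of the lists that follow are to be read against those. Since day 0 none was called, with medians of -0.14, 0.01 and 0.24 at days 2, 7 and 14. Col4a2, the partner chain of Col4a1, differed from day 0 by 0.63, 0.54 and 0.80 (limma adjusted p = 0.212, 0.911 and 0.114).

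Enzymes that fold and crosslink collagen numbered 18 tested genes, with 3 called higher (P3h2 0.90, Plod2 0.84 and Loxl3 0.44) and 1 lower (Plod1 -0.41) under canertinib, and a median of 0.14 that equals that of all genes. Other matrix proteins had 7 of 24 called higher (Lama4 1.33, Mfap5 1.22, Vtn 0.87 and Fbln1 0.83) and 1 lower (Bgn -0.39), with a median of 0.50. Genes of matrix breakdown and its inhibitors had 5 of 15 called higher (Adam12 1.18, Plat 1.05, Timp3 0.93 and Mmp8 0.74), with a median of 0.57. The 7 of 24 and 5 of 15 stand beside the 24% of all genes called higher. None of these, and no collagen of the list, passed in the canertinib comparison once array set entered the model. Against day 0 that model called 1 of the 24 other matrix proteins higher at day 2 and 1 at day 14. Of all genes it called 61 and 27 at those days.

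TGF-beta and PDGF signalling, a main drive of collagen genes in stellate cells, had 2 of 20 genes called higher (Skil 0.44 and Smad3 0.42) and 3 lower (Bambi -1.12, Smad2 -0.52 and Smad4 -0.29) with canertinib, with a median of -0.10. The contractile list had 2 of 10 called lower (Vim -0.90 and Tpm1 -0.70) and none higher. No gene of either list passed against day 0, with contractile medians of 0.61, 0.65 and 0.31 at days 2, 7 and 14. Tagln, a contractile protein of smooth muscle and myofibroblasts, differed by 1.74 at day 2 (limma adjusted p = 0.145).

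Across the 16 arrays, as a description of samples that share arms and array sets, Col3a1 and Sparc had a Pearson r of 0.83 on the log2 scale, Col4a1 and Sparc 0.82, and Lum and Sparc 0.77. Timp1 and Acta2 had 0.66, and Col3a1 had 0.01 with Timp1 and -0.01 with Acta2. Within array sets those values were 0.80, 0.79, 0.72, 0.47, 0.37 and 0.30. Col3a1 and Col5a2 are adjacent on chromosome 1 and Lum and Dcn on chromosome 10 in the RefSeq annotation, with r of 0.52 and 0.25.

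The genes whose course over 16 arrays was most like the brighter Col1a1 probe set were Pygm (r = 0.86), Igdcc3 (0.80), Sfmbt1 (0.80), Pcdhb8 (0.79) and Eva1b (0.79). For Timp1 they were Ryr3 (r = 0.86), Tbc1d8 (0.86), Akap12 (0.85), Tead1 (0.85) and Bmper (0.85). Col3a1, looked up after its course was seen, had Vim, the intermediate filament of mesenchymal cells, nearest (r = 0.93, and 0.92 on the 10 brighter arrays), then Tmsb10 (0.86), Oxct1 (0.83), B4galt5 (0.83) and Pck2 (0.83). Vim read 527, 707, 1006 and 1383 at days 0, 2, 7 and 14 in MET_KO_canertinib livers, 282, 635, 1687 and 688 in MET_FLOX_canertinib livers, 1013, 2196, 2375 and 656 in MET_KO livers, and 770, 2333, 1695 and 1692 in MET_FLOX livers. Its day 2 signals, like those of Col3a1, were lower in both canertinib arms than in both arms without the drug.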

How the data were processed

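Total liver RNA was hybridised to 16 Affymetrix arrays, per the labels' protocols. The deposited values are signal intensity on a linear scale made with MAS5, per the submitters' processing notes, and every array's mean, trimmed by 2% at each end, is 500, as computed from the deposited intensity values. Of 45101 probe sets, 34945 are annotated to 1 gene, 932 to several and 9160 to none, and 64 are controls. Intensities were taken as log2(signal + 16). Probe sets above their array's median on at least 4 of 16 arrays were kept (22317), and the one with the highest mean stood for each of 13577 genes. limma 3.58.1 in R 4.3.3 fitted arm and day (9 residual degrees of freedom, Benjamini-Hochberg adjusted p below 0.05) over all arrays, and canertinib by day in a second model (6). Each arm has 1 array a day, so the days serve as replicates of an arm. Replicate numbers are the labelled days, which pair the arms, and day was the block. On simulated data with the real means, canertinib differences of 1 and 2 on the log2 scale were recovered in 61% and 94% of changed genes, day 2 differences in 30% and 85%, and canertinib by day 7 differences in 0% and 2%. The simulation had independent noise, no array sets and 100 changed genes at each size, whereas 34.6% of the real genes were called for canertinib. These shares therefore do not measure recovery in the real data. Named genes are the 10 members, up to 4 per companion list (called genes first, by size, otherwise by smallest p) and the 5 most like Col1a1 and Timp1. The members and lists were chosen with earlier results of these data known. Pseudocount, filter, scaling, probe set summary, array set, intensity trend, block and each array left out were varied. Array number limits the precision.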

Additional observations from a re-analysis of the deposited data

Results flagged for a closer look

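In 4 of 40 groups of 4 arrays (a gene in an arm) 1 array stood apart from the other three, by a gap over the group's range above Dixon's 95% critical value; chance gives about 1 in 20, and the 4 arrays of an arm are different days. Col1a2 in MET_KO livers had its day 14 signal apart (1916 against 1129 to 1149, ratio 0.967), on the only array of that arm in the brighter set. A second Col1a2 probe set that passed the filter read 155, 596, 509 and 300 at days 0, 2, 7 and 14 in MET_KO livers. Col5a2 in MET_KO_canertinib livers was low at day 0 (159 against 372 to 413, ratio 0.887). Timp1 in MET_FLOX_canertinib livers was low at day 2 (266 against 412 to 422, ratio 0.949), and Lum in the same arm was high at day 7 (567 against 316 to 334, ratio 0.908).

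In several genes the change between 2 days ran one way in both canertinib arms and the other way in both arms without the drug. Between days 2 and 7 this held for Col3a1 (difference of the changes 1.99, limma adjusted p = 0.408), Col5a2 (1.64, adjusted p = 0.746), Acta2 (0.94, adjusted p = 0.667), Sparc (0.47, adjusted p = 0.837) and Timp1 (0.47, adjusted p = 0.819), always higher at day 7 with canertinib and lower without it. Between days 0 and 7 it held for Acta2 (0.96, adjusted p = 0.842), and without MET_KO_canertinib day 7 that value was 0.57. None of these interactions passed the test. The share of all genes with such a pattern was not counted, so the number of genes listed is not read as a result about them. At these days drug and array set cannot be told apart. In simulations with independent noise and no array sets, canertinib by day 7 differences from day 0 of 1 and 2 were recovered in 0% and 2% of changed genes. The contrast of days 2 and 7 was not simulated.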

How the results depend on the processing

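No called result changed direction under the alternatives tried. Of the 5 genes called between canertinib arms and arms without canertinib, 3 stayed called with arrays centred on their medians (Col3a1, Lum, Sparc), 3 with quantile normalization (Acta2, Lum, Sparc), 3 with no intensity trend (Timp1, Acta2, Sparc), 2 without the replicate block of days (Timp1, Acta2) and 0 with array set as a term. Leaving out 1 array gave 1 to 6 calls: the lowest was without MET_KO day 7, when only Sparc passed, and the highest without MET_KO_canertinib day 14, when Col4a1 joined. Sparc passed in all 16 of those fits (largest adjusted p 0.0306), Timp1 failed in 2, Acta2 in 5, Col3a1 in 9 (every array of days 0 and 2 but MET_KO_canertinib day 0, and day 7 of MET_KO_canertinib and MET_KO) and Lum in 11 (all but MET_KO_canertinib days 0 and 14, MET_FLOX_canertinib day 7, MET_KO day 0 and MET_FLOX day 14). Col3a1 did not pass with the mean of all its probe sets (-0.32, adjusted p = 0.168).

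For MET_KO_canertinib against MET_FLOX the 1 call (Timp1) became 0 with pseudocount 1, no filter on low signal, centred arrays, quantile normalization, array set or no replicate block, and 0 to 1 when 1 array was left out. Against MET_KO the 0 calls became 1 (Timp1) with pseudocount 64, the mean of all probe sets or no intensity trend, and 0 to 1 on leaving out an array. For MET_FLOX_canertinib against MET_FLOX the 1 call (Sparc) became 0 with no filter, quantile normalization, array set, no trend or no replicate block, 2 with centred arrays (Lum, Sparc), and 0 to 3 on leaving out an array (3 without MET_KO_canertinib day 14). Day 2 against day 0 gave 0 to 2 calls and day 14 against day 0 gave 0 to 1 when 1 array was left out: Sparc and Col4a1 at day 2 without MET_KO_canertinib day 14, Sparc without its day 2, and Col1a2 at day 14 without MET_FLOX_canertinib day 14. The cause of these changes was not tested, other than that a left-out array leaves fewer samples. With 1 array for each arm and day, an arm's spread holds the differences between days, and day-specific effects of the drug rest on 2 arrays against 2.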

Other observations

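Other probe sets of the same genes were read on their own among 34945 probe sets, with no filter, after the disagreement of the Col1a1 probe sets was seen. A second Sparc probe set was lower with canertinib by -1.09 (SE 0.27, limma adjusted p = 0.0114), with signals at days 0, 2, 7 and 14 of 362, 1282, 1346 and 1433 in MET_KO_canertinib livers, 167, 760, 1824 and 1419 in MET_FLOX_canertinib livers, 1206, 2549, 2437 and 1542 in MET_KO livers, and 1330, 2921, 1601 and 2026 in MET_FLOX livers. A further Sparc probe set differed by -0.15 (SE 0.25, adjusted p = 0.664) and was higher with canertinib in 4 of 8 pairs of arrays. The other Acta2 probe sets did not pass the filter on low signal. A second Col4a1 probe set differed by 0.29 (SE 0.14, adjusted p = 0.134), against -0.37 for the chosen one, and was higher with canertinib in 6 of 8 pairs of arrays.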
